A study of Mus musculus with 6 samples.

Results

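Fut2, Duox2 and Duoxa2 are 3 genes of epithelial defence at the gut surface, followed here in the crypt base of the mouse ileum with and without Nod2. They were the probe sets that carry exactly these symbols in the authors' table of named genes, 3 of 28853 probe sets on the array, and each gene has 1 probe set. The genes were chosen with their difference between Nod2-/- and WT already known, and the authors' table holds a gene only if it differed between the genotypes. The differences below are therefore a description of these arrays and not an independent test.

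Fut2 encodes the fucosyltransferase that adds fucose in alpha-1,2 linkage to glycans of the intestinal surface and of mucus, where gut bacteria can bind it or use it as food. In the mouse ileum, surface fucosylation is known to depend on microbes and on interleukin-22 from innate lymphoid cells. Duox2 encodes dual oxidase 2, which releases hydrogen peroxide at the apical surface of epithelial cells. Duoxa2 encodes the maturation factor that the oxidase needs to leave the endoplasmic reticulum, so the products work as a complex.

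RNA came from epithelium cut by laser from crypt bases of 8-week-old C57BL/6J mice, 3 captures from Nod2-/- mice and 3 from WT mice, each hybridised to 1 Affymetrix MoGene 1.0 ST array. Nod2 is an intracellular receptor for bacterial cell wall fragments, and the labels give neither the allele nor its origin. The labels call the captures Paneth cells, but the capture was made by position, and it can include neighbouring stem, goblet and other cells. The labels do not tie captures to animals, so the spread between arrays may be partly technical. Values are intensities after RMA, which corrects background, equalises the arrays and summarises the probes of a probe set. A difference of 1 on the log2 scale is a 2-fold difference.

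Only genes in the authors' table carry names here, which leaves 3 of 14 Paneth cell markers (Mptx1, Pnliprp2 and Clps) and none of the lysozyme and alpha-defensin markers to check the capture. The level of Nod2 itself was not analysed here, so the genotype labels were not checked by it. The correlation of log2 values between any 2 arrays, across probe sets, lay between 0.971 and 0.987. The arrays carry 2 numbers in the form of a date in their column names, one for replicate 1 of both genotypes and one for replicates 2 and 3. Nothing says what was done on those days. They are called dates here, and each held arrays of both genotypes.

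Duox2 and Duoxa2 lie head to head on chromosome 2. In mm9, the build of the authors' table, the Duox2 probe set spans 122106183 to 122123901 on the minus strand and the Duoxa2 probe set spans 122124636 to 122128621 on the plus strand, with 734 bases between them. Fut2 lies on chromosome 7, at 52903965 to 52921764 on the minus strand. The promoters of the oxidase and its maturation factor are shown because these genes start beside each other and are read in opposite directions. The sequences are from RefSeq (GRCm38.p6), 250 bases before to 50 bases after the gene's start, and 2 of the 3 genes had an entry. The Duox2 window is chr2:122298178-122298477 on the minus strand and the Duoxa2 window is chr2:122298650-122298949 on the plus strand. Capitals mark matches, on either strand, to TATAAA (the TATA box), CCAAT (the CCAAT box) or TTCNNNGAA (STAT factors).
Duox2 promoter: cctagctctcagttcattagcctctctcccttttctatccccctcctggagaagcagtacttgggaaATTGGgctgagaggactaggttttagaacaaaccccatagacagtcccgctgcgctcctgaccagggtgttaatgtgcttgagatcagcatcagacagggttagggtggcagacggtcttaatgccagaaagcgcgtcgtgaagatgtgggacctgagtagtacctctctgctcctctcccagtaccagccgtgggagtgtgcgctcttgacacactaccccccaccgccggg
Duoxa2 promoter: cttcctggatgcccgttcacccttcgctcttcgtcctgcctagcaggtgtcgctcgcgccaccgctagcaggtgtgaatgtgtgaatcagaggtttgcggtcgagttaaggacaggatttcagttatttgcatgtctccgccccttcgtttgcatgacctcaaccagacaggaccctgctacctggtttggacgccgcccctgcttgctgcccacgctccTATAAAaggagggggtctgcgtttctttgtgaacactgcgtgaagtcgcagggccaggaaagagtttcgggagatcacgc

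The Duoxa2 window holds TATAAA once, starting at position -30 from the gene's start, and 13.6% of 32851 promoter windows of this length hold it on either strand. The Duox2 window holds no TATAAA and has CCAAT once, on the opposite strand and starting at position -183, a motif found in 37.4% of windows. Neither window holds TTCNNNGAA, which 8.3% of windows hold. The matches are letters in a window and say nothing of binding.

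Fut2 was 2.10-fold higher in Nod2-/- crypt bases, and its arrays did not overlap between genotypes. Its intensity was 109, 103 and 130 in Nod2-/- replicates 1, 2 and 3, against 43.8, 67.4 and 53.1 in WT replicates 1, 2 and 3. The lowest Nod2-/- array lay above the highest WT array, and WT replicate 2 came nearest to the Nod2-/- arrays. On the log2 scale Fut2 averaged 6.82 ± 0.18 in Nod2-/- and 5.75 ± 0.31 in WT (SD, n = 3 each), a difference of 1.07 ± 0.18 (standard error), or 2.10-fold. All standard errors given here are from the limma fit described below, which draws the spread of each probe set towards that of the others. By an unpaired t test per probe set, which does not, the standard error was 0.21 for Fut2, 0.47 for Duox2 and 0.39 for Duoxa2. Of all 28853 probe sets, 36 had a difference at least as high, Fut2 included.

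Duox2, the oxidase, had higher mean values in Nod2-/-, but its arrays overlapped. Its intensity was 116, 188 and 151 in Nod2-/- replicates 1, 2 and 3, against 53.2, 145 and 102 in WT replicates 1, 2 and 3. WT replicate 2 lay above Nod2-/- replicate 1, and WT replicate 1 lay far below all other arrays. Duox2 averaged 7.22 ± 0.34 in Nod2-/- and 6.53 ± 0.73 in WT (log2 intensity, SD, n = 3 each), a difference of 0.69 ± 0.39 (standard error), or 1.61-fold. Without WT replicate 1 the log2 difference was 0.29, and without WT replicate 2 it was 1.01.

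Duoxa2, the maturation factor, also had a higher mean in Nod2-/-, which rested largely on 1 array. Its intensity was 60.2, 135 and 73.7 in Nod2-/- replicates 1, 2 and 3, against 52.7, 77.5 and 55.4 in WT replicates 1, 2 and 3. Nod2-/- replicate 2 stood above all other arrays, and the 5 others lay close together with WT replicate 2 highest among them. Duoxa2 averaged 6.40 ± 0.61 in Nod2-/- and 5.93 ± 0.30 in WT (log2 intensity, SD, n = 3 each), a difference of 0.47 ± 0.33 (standard error), or 1.39-fold. Without Nod2-/- replicate 2 the log2 difference was 0.13, or 1.09-fold, and without Nod2-/- replicate 1 it was 0.71. The authors' table takes in genes either from a log2 difference of 0.41 in either direction or, at a smaller difference, by the p of the authors' unpaired test, and Duoxa2 entered by the first route, little above its limit.

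**Figure D1:**
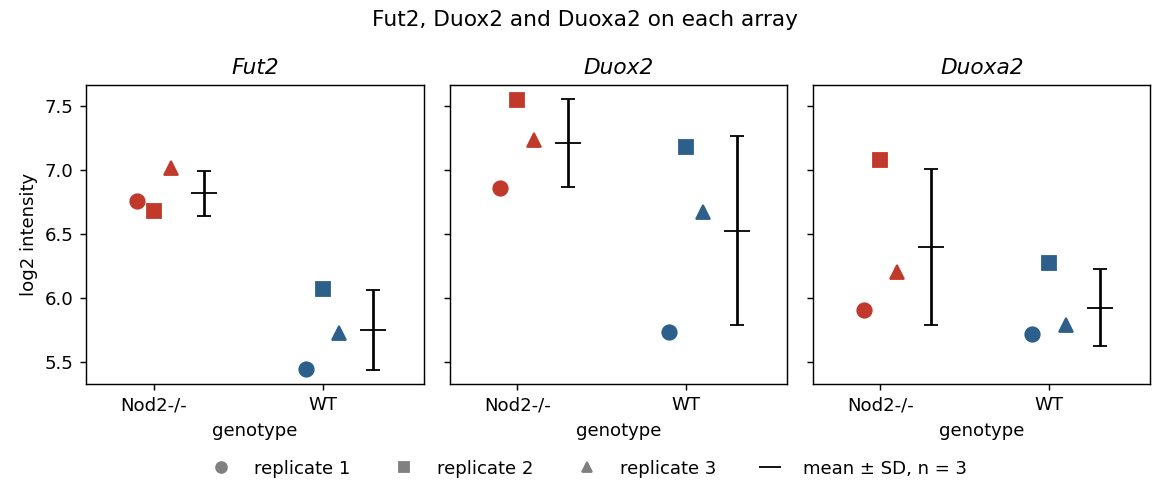
Log2 intensity of Fut2, Duox2 and Duoxa2 on each of the 6 arrays (y axis), by genotype (x axis), with the marker shape giving the replicate number and the bars giving mean ± SD of 3 arrays. Fut2 separates the genotypes, while WT replicate 2 lies among the Nod2-/- arrays for Duox2 and Duoxa2.

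None of the 3 genes passed the test over the whole array. With limma, a linear model that shares information on spread between probe sets, 0% of 28853 probe sets had an adjusted p under 0.05 (0 probe sets), and 1106 had an unadjusted p under 0.05. The adjusted p of Fut2, Duox2 and Duoxa2 was 1.00 each with limma. Arrays without overlap and with Nod2-/- higher were found for 1 of the 3 genes, Fut2, and for 3.42% of all probe sets. All 3 genes were higher by at least 0.41 on the log2 scale, as were 2.11% of all probe sets, and nothing can be read from this because the table was selected on that fold.

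The genes differed in how much they varied between arrays of one genotype. The pooled SD within genotypes was 0.25 for Fut2, 0.57 for Duox2 and 0.48 for Duoxa2 (log2 units), against a median of 0.12 over all probe sets. A smaller SD was found in 80.4% of probe sets for Fut2, in 98.2% for Duox2 and in 96.6% for Duoxa2. The oxidase and its maturation factor were thus among the probe sets with the widest spread when all probe sets, dim ones included, were ranked. Their spread was not compared with that of probe sets of like intensity.

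**Figure D2:**
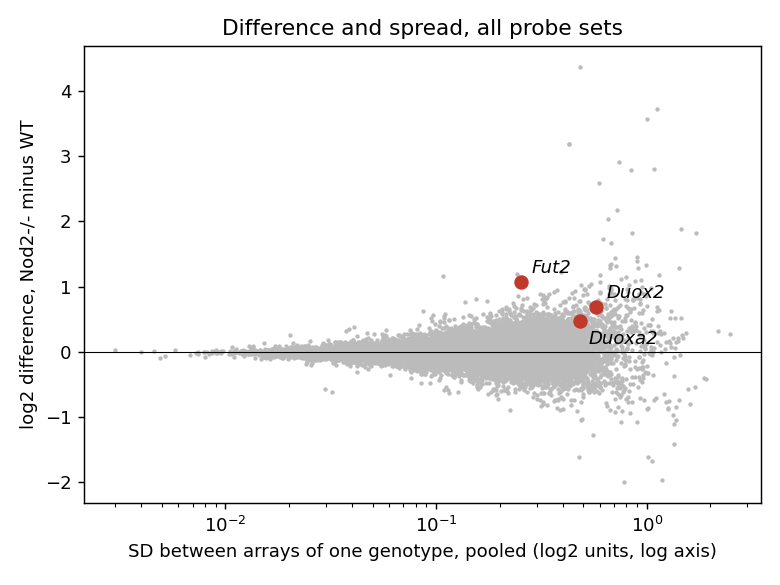
Log2 difference, Nod2-/- minus WT (y axis), against the SD between arrays of one genotype, pooled over both genotypes (x axis, log scale), for all 28853 probe sets in grey and the 3 genes in red. Fut2, at a difference of 1.07 and an SD of 0.25, lies at the upper edge of the cloud, and Duox2 and Duoxa2 lie among probe sets with an SD of about 0.5 or more.

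Within the dates, all 3 genes had higher values in Nod2-/- on average. Fut2 differed by 1.31 on the date of replicate 1 and by 0.95 for replicates 2 and 3 (log2, Nod2-/- minus WT). For Duox2 the differences in the same order were 1.13 and 0.47. For Duoxa2 they were 0.19 and 0.61. The first of these dates held 1 array per genotype and the other 2, so a date alone gives little precision. For Fut2 and Duox2, arrays of the same date did not overlap between genotypes, and for Duoxa2 they did, since Nod2-/- replicate 3 (6.20) lay below WT replicate 2 (6.28). Of all probe sets, 6.67% had every Nod2-/- array above every WT array of its date. When date was added to the limma model, the adjusted p was 0.822 for Fut2, 0.971 for Duox2 and 1.00 for Duoxa2. The unadjusted p in limma with date was 0.0011 for Fut2, 0.026 for Duox2 and 0.159 for Duoxa2. Without date it was 0.0011, 0.134 and 0.206 in the same order.

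**Figure D3:**
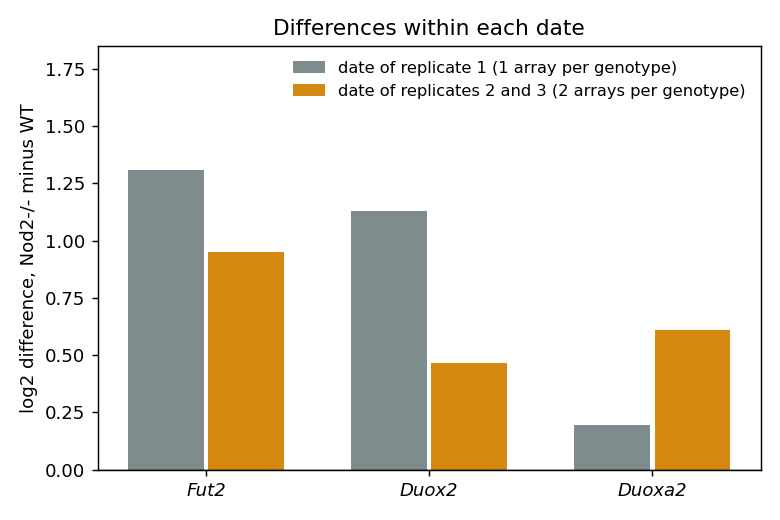
Log2 difference, Nod2-/- minus WT (y axis), of the 3 genes on the date of replicate 1 (grey, 1 array per genotype) and on the date of replicates 2 and 3 (orange, means of 2 arrays per genotype). Duox2 has the larger difference on the date of replicate 1 (1.13 against 0.47) and Duoxa2 on the other date (0.61 against 0.19).

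The oxidase and its maturation factor ranked the arrays in almost the same order. From high to low, the order for Duox2 was Nod2-/- replicates 2 and 3, WT replicate 2, Nod2-/- replicate 1, WT replicate 3 and WT replicate 1. For Duoxa2 it was the same except that WT replicate 2 and Nod2-/- replicate 3 changed places. Across the 6 arrays Spearman's rho was 0.943 and Pearson's r was 0.786, given as a description without a test because the genes were chosen with these values known. With each genotype's mean taken out, r was 0.697 as a description, and the deviations had the same sign on 4 of 6 arrays. Of the other 28851 probe sets, 988 (3.42%) had an r with Duox2 of at least 0.786, so such an r is not rare on these arrays. The share with a rho as high as 0.943 was not counted, so how rare the likeness in order is cannot be said. The dates hold 2 and 4 arrays, too few for a correlation within each.

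**Figure D4:**
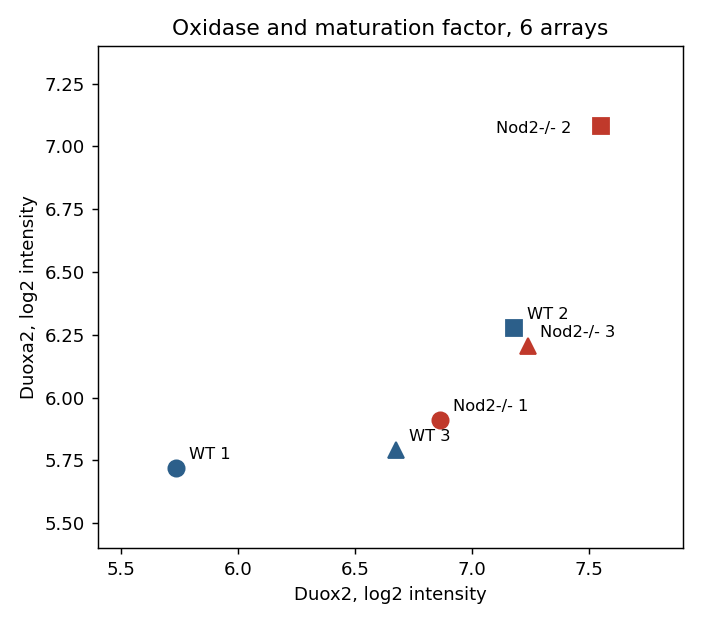
Log2 intensity of Duoxa2 (y axis) against Duox2 (x axis) on each of the 6 arrays, red for Nod2-/- and blue for WT, with labels giving genotype and replicate. The points climb together except that WT replicate 1 is low in Duox2 with Duoxa2 near WT replicate 3, and Nod2-/- replicate 2 is high in Duoxa2.

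The differences of Duox2 and Duoxa2 were apart by less than the spread between arrays. Log2 Duox2 minus log2 Duoxa2 was 0.95, 0.47 and 1.03 in Nod2-/- replicates 1, 2 and 3, against 0.02, 0.91 and 0.89 in WT replicates 1, 2 and 3. WT replicate 1 and Nod2-/- replicate 2 were the low arrays, and the 4 others lay close together. The mean was 0.82 ± 0.30 in Nod2-/- and 0.60 ± 0.51 in WT (SD, n = 3 each), so the log2 difference of Duox2 exceeded that of Duoxa2 by 0.22. An exact two-sided permutation test gave p = 0.5, where 0.1 is the smallest that 3 against 3 can give. Such a test cannot go under 0.05, and the genes were chosen with these values known, so it does not show that they moved alike. Without WT replicate 1 this excess was -0.08. Replicates 2 and 3 alone, from the same date, gave -0.14, and replicate 1 gave 0.93.

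Among the WT arrays, all 3 genes had the same order, with replicate 2 highest, replicate 3 next and replicate 1 lowest, an order found in 15.3% of all probe sets. WT replicate 1 was the lowest of all 6 arrays for each gene. This held for 16.6% of all probe sets and for 35.5% of those in the authors' table. Among the Nod2-/- arrays the genes differed, with Fut2 highest in replicate 3 and Duox2 and Duoxa2 highest in replicate 2.

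Fut1 and Sec1, fucosyltransferase genes near Fut2, and Duox1 and Duoxa1, the other oxidase and maturation factor genes beside Duox2 and Duoxa2, are not named in the authors' table and were not analysed here. The lists below were drawn up with earlier results of these data known, and a gene without a name in the table was either under its thresholds or not measured under its symbol. Of 16 genes for DUOX and NOX oxidases and their partners, Duox2 and Duoxa2 were the only ones named. Noxa1, an activator of the oxidase Nox1, appears in a probe set shared with Entpd8, whose signals cannot be separated. That probe set averaged 7.35 in Nod2-/- and 6.88 in WT, a log2 difference of 0.48 ± 0.23 (standard error), and its adjusted p in limma was 1.00. Of 18 genes for fucose synthesis and transfer, Fut2 was the only one named.

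Signalling that is known to induce these genes was covered by few named genes. Of 16 genes for interleukin-22, interleukin-17 and STAT3 signalling, 2 were named, both with higher means in Nod2-/-, and none passed the test. The authors' table, selected on the difference, holds 3.65% of all probe sets, and 653 of its 1053 were higher in Nod2-/-. Socs3, an inhibitor of cytokine signalling induced by STAT3, has 2 probe sets in the table. One had log2 values of 5.82, 6.09 and 6.79 in Nod2-/- replicates 1, 2 and 3, against 5.27, 5.61 and 5.67 in WT replicates 1, 2 and 3. Its arrays did not overlap, with Nod2-/- higher, as in 3.42% of all probe sets, and the log2 difference was 0.72 ± 0.27 (standard error). The brighter Socs3 probe set had 5.52, 6.76 and 7.65 in Nod2-/- replicates 1, 2 and 3, against 5.26, 5.84 and 6.40 in WT replicates 1, 2 and 3. It differed by 0.81 ± 0.59 (standard error), and its arrays overlapped. Bcl3, a nuclear partner of NF-kB, averaged 7.91 ± 0.39 in Nod2-/- and 7.39 ± 0.33 in WT, a log2 difference of 0.53 ± 0.25 (standard error). Its highest array was Nod2-/- replicate 2 and its lowest WT replicate 1, as for Duox2 and Duoxa2. WT replicate 1 was the lowest array for 35.5% of the probe sets in the authors' table, and the share with both traits was not counted. Of 14 genes on the list for NF-kB and NOD2 signalling, 0 were named, and Bcl3 was counted only in the list of 16 genes.

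Of 22 epithelial genes induced by microbes or cytokines, 3 were named, all with higher means in Nod2-/- and none past the test. Beside this, the authors' table holds 3.65% of all probe sets, and 653 of its 1053 were higher in Nod2-/-. The 3 named genes were selected on the difference. These genes were Reg3b and Reg3g, antibacterial lectins, and Retnlb, which goblet cells secrete against bacteria. Reg3b had log2 values of 11.32, 11.66 and 11.70 in Nod2-/- replicates 1, 2 and 3, against 7.42, 11.42 and 10.20 in WT replicates 1, 2 and 3. The 3 WT arrays stood in the same order as for Fut2, Duox2 and Duoxa2, with replicate 1 far below, and Reg3g and Retnlb had that WT order too. Arrays of Reg3b overlapped between genotypes, and those of Reg3g and Retnlb did not, with Nod2-/- higher, as in 3.42% of all probe sets. Retnlb had a log2 difference of 3.73 ± 0.76 (standard error), with 6.05 for replicate 1 and 2.57 for the date of replicates 2 and 3. For Reg3g the log2 difference was 2.38 for replicate 1 and 0.25 for the date of replicates 2 and 3, a wider gap between dates than for Duox2.

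Of 27 genes for peroxidases and the removal of hydrogen peroxide, the product of the oxidase, 2 were named. Both were selected on the difference, like the 3.65% of all probe sets that the authors' table holds. Gpx2, a glutathione peroxidase of the gut epithelium, averaged 11.32 ± 0.18 in Nod2-/- and 10.86 ± 0.35 in WT (log2, SD, n = 3 each). Its difference was 1.02 for replicate 1 and 0.18 for the date of replicates 2 and 3. Prdx2, a cytosolic peroxidase, went the other way by -0.62 ± 0.05 (standard error; adjusted p = 0.183 in limma), and by -0.66 and -0.61 within the dates. For neither gene did Nod2-/- and WT arrays overlap. Arrays without overlap and with Nod2-/- higher were found in 3.42% of all probe sets, and the share with Nod2-/- lower was not counted. For Gpx2 the gap was very small, with 11.132 in Nod2-/- replicate 3 against 11.127 in WT replicate 2. Prdx5, a peroxiredoxin, appears in a probe set shared with Trmt112, which averaged 6.46 in Nod2-/- and 5.65 in WT, a log2 difference of 0.81 ± 0.44 (standard error), and its adjusted p in limma was 1.00.

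The genes whose values over the 6 arrays were most like each of the 3 were ranked by Pearson's r among the 854 other probe sets with 1 symbol, as a description. For Fut2 they were Acadl, a mitochondrial enzyme of fatty acid oxidation (r = 0.991), Dennd4a (0.984), Marcksl1 (0.983), Lum, a matrix proteoglycan (0.970), and Ms4a7 (0.969). All of these had Nod2-/- arrays above all WT arrays, with log2 differences between 0.36 and 0.74. They were picked for likeness to Fut2, whose arrays did not overlap, so nothing can be read from this. For Duox2 they were Fcer1g, a signalling chain of Fc receptors in leukocytes (0.981), Stx8, a syntaxin of endosomes (0.976), Mgp, a matrix protein (0.973), Triap1 (0.970) and Rbm33 (0.965). Except for Rbm33, their arrays overlapped between genotypes. For Duoxa2 they included Car4, a carbonic anhydrase of the cell surface (0.965), Cnpy4 (0.956), Pdlim3 (0.954) and Actg2, an actin of smooth muscle (0.948). Duox2 and Duoxa2 were not in each other's first 5, and 114 of the 853 other named probe sets had an r with Duox2 at least as high as that of Duoxa2.

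Markers of other cell types were also named, and being named means that the gene differed between the genotypes. The table names 3.65% of all probe sets, and 653 of its 1053 probe sets were higher in Nod2-/-. Of 10 fibroblast and matrix genes, 6 were named, all with higher means in Nod2-/-, and their summed intensity lay between 1986 and 2838 in Nod2-/- and between 1052 and 1826 in WT. The highest sum was in Nod2-/- replicate 2 and the lowest in WT replicate 1, as for Duox2 and Duoxa2. WT replicate 1 was the lowest array for 35.5% of the probe sets in the authors' table, and the share with both traits was not counted. Such sums weigh the brightest genes most. Of 12 leukocyte markers only Cd74 was named, with intensities between 609.7 and 1419 in Nod2-/- and between 182 and 1206 in WT, lowest in WT replicate 1. Of 10 tuft cell markers 9 were named, all with higher means in Nod2-/- (summed intensity 464 to 948 in Nod2-/- and 378 to 406 in WT). Of 10 goblet cell markers 6 were named, 4 with higher and 2 with lower means in Nod2-/- (4006 to 5516 in Nod2-/- and 2276 to 4385 in WT), and of 14 Paneth cell markers 3, all with higher means (6873 to 13051 in Nod2-/- and 4505 to 8584 in WT). Of 10 villus enterocyte markers 4 were named, 3 with lower means in Nod2-/- (586 to 907 in Nod2-/- and 863 to 1411 in WT), and of 8 crypt stem cell markers 4, all with lower means (470 to 956 in Nod2-/- and 796 to 1385 in WT). The villus enterocyte and stem cell sums were highest in WT replicate 1 and lowest in Nod2-/- replicate 2, the reverse of Duox2 and Duoxa2, while the Paneth cell sum was highest in Nod2-/- replicate 1 and lowest in WT replicate 2. The part of cell makeup in the values of Fut2, Duox2 and Duoxa2 was not tested, and in captured tissue more cells that express a gene and more RNA per cell cannot be told apart.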

How the data were processed

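Intensities of 28853 probe sets on 6 arrays were used as deposited. The authors' intensity values were made by RMA, per the submitters' processing notes, and the program and its options are not stated there. A second deposited table, with gene symbols and mm9 positions per the file headers (MoGene 1.0 ST), holds 1053 probe sets, all with the intensities of the value table (relative tolerance 0.001). It was selected on the outcome. Its authors' log2 fold column, present for 962 probe sets, matched Nod2-/- minus WT means of log2 values in each (tolerance 0.001), and its p-value column, from an unpaired test per the file headers, is given for 287. Of 855 probe sets with 1 symbol, 800 matched the RefSeq genes of GRCm38.p6 by Entrez number.

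Log2 of all intensities was fitted in limma 3.58.1 (R 4.3.3; lmFit, eBayes) on genotype alone, without a filter and with Benjamini-Hochberg adjustment over all probe sets at 0.05. The fit was tested on simulated arrays of 28853 probe sets, where it called 44 of 50 simulated 2-fold changes and made 8 false calls over all fold sizes. The simulated arrays had independent normal noise with each probe set's spread, no date effect, and 50 changed probe sets at each fold size. They check that the fit runs, and they do not give the share of 2-fold changes it finds on the real arrays. Single values were tested by exact permutation of the arrays (Python 3.11.15). The number of arrays limits the precision.

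Named genes are the 3 genes, the members of the lists that the table names, their neighbours on the genome, and the 5 named genes most like each by Pearson's r, of which 1 is not reported here. Where a gene has several probe sets, list sums use the brightest. The members and lists were chosen with earlier results of these data known. The alternatives were scaling, an offset, a filter, the prior, the unpaired test, blocks and leaving out each array.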

Additional observations from a re-analysis of the deposited data

How the results depend on the processing

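Fut2, Duox2 and Duoxa2 kept a higher mean in Nod2-/- under each of the 16 alternatives run for each, and none was called in the 15 that give a test. The date of replicate 1, with 1 array per genotype, gives none. Under the blocks, the filter, the prior and the unpaired test the log2 difference of a gene cannot change. The genes were also chosen with their difference known, so the shared direction was partly fixed in advance. With 1 array left out the log2 difference lay between 0.92 and 1.23 for Fut2, between 0.29 and 1.01 for Duox2 and between 0.13 and 0.71 for Duoxa2. With 16 added before log2 the differences were 0.88, 0.59 and 0.39. The count of probe sets called over the whole array was 0, and 0 to 2 with 1 array left out (2 without Nod2-/- replicate 1), 3 with dim probe sets left out and 3 with a trended robust prior. None of these was one of the 3 genes. The excess of the Duox2 difference over that of Duoxa2 (0.22) turned to -0.078 without WT replicate 1 and to -0.14 on the date of replicates 2 and 3, and was 0.93 on the date of replicate 1. With 1 array left out it lay between -0.078 and 0.39. The cause was not tested.

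With the replicate number as a block, 0 probe sets were called in limma. In this balanced design the block cannot change the log2 differences (1.07, 0.69 and 0.47) or the excess (0.22). The unadjusted p in limma was 0.019 with the block and 0.134 without it for Duox2, and 0.032 with it and 0.206 without it for Duoxa2, and the adjusted p with the block was 0.988 for both. Over all probe sets, 1398 had an unadjusted p under 0.05 in limma with the block and 1106 without it. The p-values of the 2 genes are a description, since both were chosen with their difference known. Deviations of arrays with the same number correlated at 0.201, -0.022 and 0.061 for numbers 1, 2 and 3, so not every pair deviated together, and the numbers were not taken as pairs. Arrays of unlike number but the same date correlated at 0.158 (Nod2-/- replicate 2 with WT replicate 3) and 0.075 (Nod2-/- replicate 3 with WT replicate 2). Between dates the correlations lay between -0.198 and -0.039. Deviations from a genotype's mean cancel out over its arrays, so positive correlations for some pairs force negative ones for others. Whether arrays deviated by date was not tested. Replicate 1 of both genotypes also shares a date, as do replicates 2 and 3. Signal over background was not analysed, and the number of arrays limits what can be told apart.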
